A study of Rattus norvegicus with 4 samples.

Results

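The Hox cluster genes encode the homeodomain transcription factors of the HoxA, HoxB, HoxC and HoxD clusters. They were taken as every probe on a rat Agilent array whose gene symbol is Hox, a cluster letter and a number, together with probes of such genes that stand only in the spot table. That gave 29 genes of 18255 with a name, measured by 31 of the 30367 probes on the array: 10 probes of HoxA, 7 of HoxB, 8 of HoxC and 6 of HoxD. Of these, 22 are listed in the authors' deposited table and 9 stand only in the spot table. RNA came from bone marrow cells of Wistar rats aged 6 weeks, which the submitters call endothelial progenitor cells, with no transgene or drug named in the labels. One group was cultured for 15 days at high density and the other for 15 days at regular density, which the study used as the control, with 2 arrays in each group (HD1, HD2, RD1 and RD2). The study describes 2 independent experiments. The sources used here do not say which animals, pooled or single, gave each culture, so the p-values given here reflect the scatter among these arrays alone, which may be technical.

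Hox genes lie in the order in which they are switched on along the body axis: low-numbered genes act toward the head and high-numbered genes toward the tail and the tips of the limbs. Hox proteins bind DNA with TALE homeodomain partners (Pbx, Meis and Pknox proteins). Trithorax proteins keep the clusters active, Polycomb proteins keep them silent, and retinoic acid and Cdx factors switch them on in the embryo. In the adult, blood progenitors use HoxA and HoxB genes, and connective tissue cells keep the Hox pattern of the place where they arose.

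The promoters of the gene with the largest difference among the members, Hoxd9, and of a transcript made from the opposite strand beside Hoxa11, Hoxa11-as, are shown because the results below turn on them. Both windows run from 250 bases before to 50 bases after the transcript start, are written 5′ to 3′ on the gene's strand and come from RefSeq, build GRCr8. Capitals mark CCAAT, or ATTGG where it lies on the other strand.
Hoxd9, chr3:80007756-80008055, plus strand: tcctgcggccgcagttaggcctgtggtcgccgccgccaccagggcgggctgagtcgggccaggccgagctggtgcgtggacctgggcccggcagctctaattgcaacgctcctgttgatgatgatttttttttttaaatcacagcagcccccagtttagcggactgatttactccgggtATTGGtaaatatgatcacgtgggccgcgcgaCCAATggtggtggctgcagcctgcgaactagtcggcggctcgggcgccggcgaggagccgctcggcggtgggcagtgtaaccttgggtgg
Hoxa11-as, chr4:82676778-82677077, plus strand: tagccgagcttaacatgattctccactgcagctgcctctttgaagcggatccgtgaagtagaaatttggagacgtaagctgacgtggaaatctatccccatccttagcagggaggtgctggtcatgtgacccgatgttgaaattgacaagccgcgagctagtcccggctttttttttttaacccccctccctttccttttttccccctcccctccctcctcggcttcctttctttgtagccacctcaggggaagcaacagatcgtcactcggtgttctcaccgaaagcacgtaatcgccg
The Hoxa11-as window holds none of the motifs searched. It overlaps the Hoxa11 window, which lies on the minus strand, by 274 bases. RefSeq windows were found for 14 of the 29 Hox genes, 15 windows in all. None was of a HoxB gene, and Hoxc4 was the only HoxC gene. A gene was counted for a motif if any of its windows held it, whereas the shares of all promoters count each promoter. CCAAT, searched on both strands, was present in those of 12 genes, against 37.5% of all 33469 promoters. TATAAA was present for 3 genes, against 14.2% of all promoters. The Hox and Pbx joint motif TGATTNAT was present for 1 gene, Hoxa2, against 3.18%. The median window of these Hox genes held 22 CG pairs, and the median of all promoters held 7. These matches describe the letters only.

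The arrays themselves were of like brightness, with a 75th percentile of probe intensity of 355 to 462. Negative controls had a median of 13.4 and 10.5 on the arrays numbered 1 and of 1.93 and 1.99 on those numbered 2, so the lowest intensities cannot be compared across replicate numbers. Background was set on each array where 99% of its 153 negative controls lay below, at 28.2 to 36.9. Markers of some other cell types differed with density, beside 30.9% of all tested features that differed in either direction. Smooth muscle markers had a summed scaled intensity of 109694 to 109818 at high density and 14392.6 to 14971.3 at regular density. Of these, 4 of 5 tested genes were higher (Acta2, Tagln, Myh11 and Cnn1). Cnn1 read 526 and 670 at high density but only 10.3 and 17.5 at regular density, short of the background there. It was tested because of its high density values alone, so the size of its change was not measured. The remaining tested marker, Des, was not called (log2 change -0.44, adjusted p = 0.168, limma). Stromal markers summed to 170596 to 191853 against 150109 to 167002, with 3 of 9 higher (Thy1, Cxcl12 and Lum) and 2 lower (Dcn and Vcam1). Leukocyte markers summed to 88996.5 to 93975.2 against 96026.5 to 102018, with 1 of 8 higher (Cd74) and 1 lower (Cd14). Lymphocyte markers summed to 1395.63 to 1474.63 against 355 to 430.2, with 1 of 2 tested genes higher (Gzmb). Endothelial markers summed to only 504 to 714 against 457 to 549. Of 11 endothelial markers on the array, 3 (Cdh5, Tie1 and Vwf) lay above background on all 4 arrays and none of these was called, while Tek, Cd34, Emcn and Sox17 lay above it on no array. Esam lay above it on both high density arrays and no regular density array (50.7 and 84.4 against 27.5 and 11.6), Erg and Kdr on HD2 only, and Pecam1 on RD2 only. None of these 4 was bright enough to test. In such bulk RNA, fewer cells of a type and less RNA per cell cannot be told apart, and the part of these markers in the Hox results was not tested.

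Hox probes above background were spread over all 4 clusters. On all 4 arrays, 12 of the 31 probes lay above background: 6 of HoxA (Hoxa5, Hoxa7, Hoxa9, Hoxa10 and Hoxa11 among them), 1 of HoxB (Hoxb7), 3 of HoxC (Hoxc5, Hoxc9 and Hoxc13) and 2 of HoxD (Hoxd4 and Hoxd9). A further 4 probes lay above it on some arrays. Hoxb4, known for its part in blood stem cell renewal, and Hoxd10 did so on 1 array of each group. Hoxa13, which patterns digits, and Hoxb6 did so on 1 high density array only. The other 15 probes lay under background everywhere, and they include every probe found only in the spot table. Counted by array, 12 of the 31 Hox probes passed on HD1, 16 on HD2, 12 on RD1 and 14 on RD2. Of all probes on the array, 54.8% passed on HD1, 61.2% on HD2, 53.9% on RD1 and 55.7% on RD2. The 15 dim Hox probes read 11.0 to 23.3 on HD1, 1.61 to 26.9 on HD2, 8.91 to 15.7 on RD1 and 1.70 to 18.4 on RD2.

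**Figure D1:**
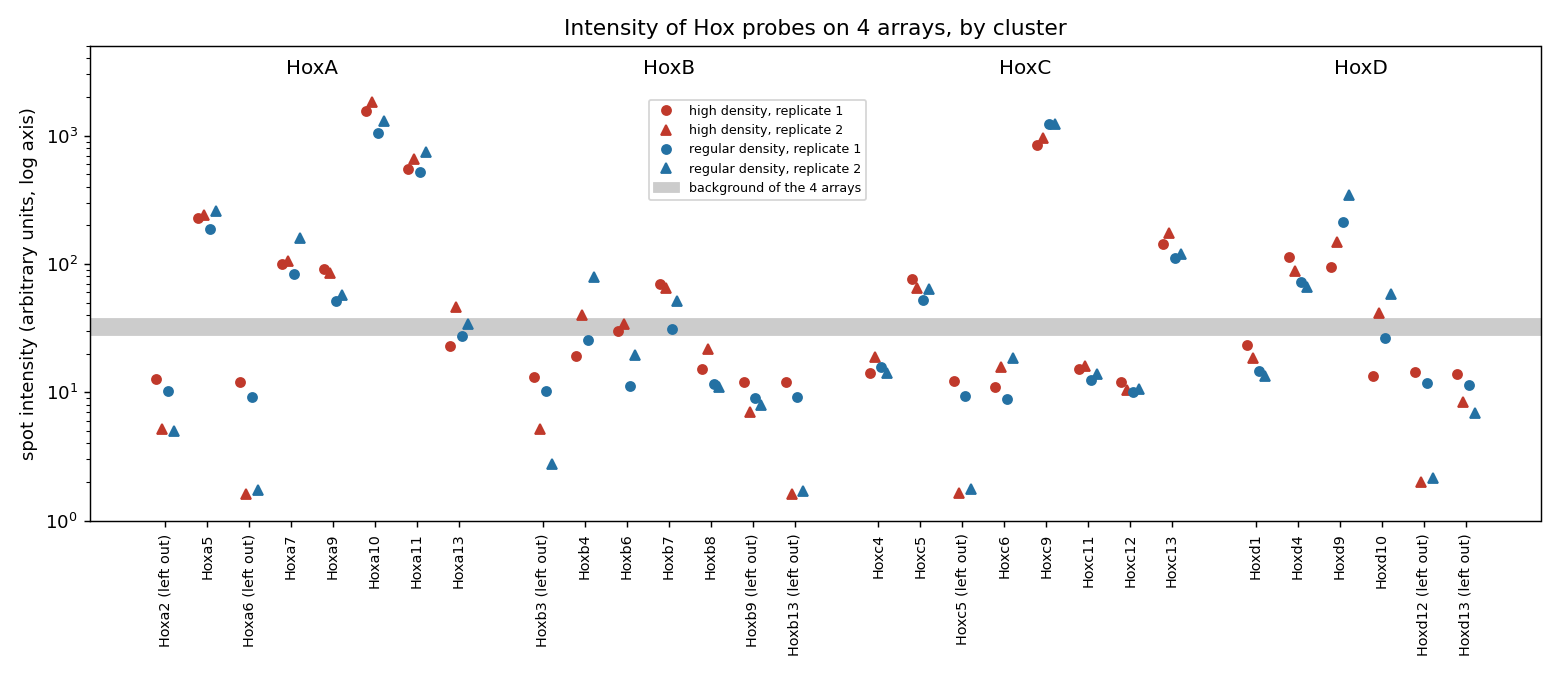
Intensity of the Hox probes on the 4 arrays (log axis), in order of cluster and gene number, with the range of background over the arrays as a grey band. Probes marked as left out stand only in the spot table, and all of them lie below the band, while of the 7 HoxB probes 1 lies above background on all arrays.

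The comparison of high with regular density asks which genes differ between the culture conditions. Among the Hox genes, Hoxa10 was higher at high density, Hoxd9 and Hoxc9 were lower, and the other 9 tested genes did not pass the test. The 12 probes above background on all arrays were also the ones bright enough to test, by their mean over all 4 arrays. By limma with Benjamini-Hochberg adjustment over all 13676 tested features, 13.0% of features were higher and 17.9% lower, 30.9% in either direction, so 3 of 12 Hox genes is near the background and is no result about the family. Their median log2 change was 0.26, with a range of -1.28 to 0.65, against a median of -0.08 over all tested features. The scaled values of the groups did not overlap for 8 of the 12 (66.7%), and for 69.7% of all tested features. Each array was scaled to its 75th percentile, and all changes below are high minus regular density on that log2 scale, with n = 2 arrays per group.

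**Figure D2:**
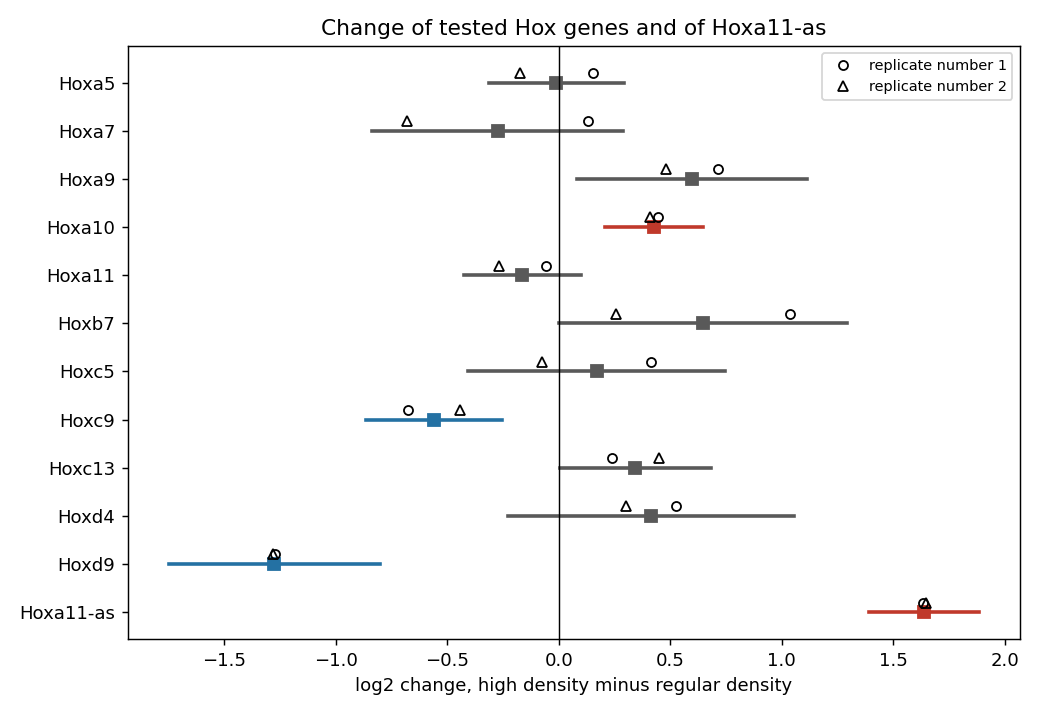
Log2 change (high minus regular density) of tested Hox genes and Hoxa11-as, with 95% confidence intervals from limma, n = 2 arrays per group. Squares are limma's estimates (red higher, blue lower, grey not called) and open symbols the changes within each replicate number. Hoxd9 (-1.28) and Hoxc9 (-0.56) lie below 0, Hoxa10 (0.43) lies above it, and Hoxa11-as (1.64) lies above the Hox genes shown.

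Within HoxA, Hoxa10 was the only gene called. Hoxa10, which patterns the limb and the uterus and acts in blood progenitors, read 1562 and 1834 at high density and 1054 and 1299 at regular density. Both high density arrays were above both regular density arrays. The difference was 1.34-fold (log2 change 0.43, SE 0.09, adjusted p = 0.0165, limma), with 0.45 within replicate number 1 and 0.41 within number 2. The call ended without HD1 (log2 change 0.41, adjusted p = 0.119), without HD2 (0.44, adjusted p = 0.0706), under median scaling (0.30, adjusted p = 0.0982) and without scaling (0.53, adjusted p = 0.101). The probe lies at chr4:80531924-80531983 on the minus strand in the authors' table, which names no assembly. It carries the file's own symbol and Entrez ID 368057, for which no RefSeq match was found.

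The array's symbols for neighbouring HoxA probes are old. A second probe listed as Hoxa10 under the same Entrez ID, at chr4:80542437-80542496 on the minus strand, matched Hoxa11 through its accession. Hoxa11, which patterns the forearm and lower leg, read 546 and 655 at high density and 523 and 742 at regular density. After scaling, its log2 values were 9.17 and 9.17 at high density and 9.23 and 9.44 at regular density. The groups were separate by a small step and the gene was not called (log2 change -0.16, SE 0.11, adjusted p = 0.295, 95% interval -0.43 to 0.10). Thus the pair of probes that share a symbol in the file had changes of opposite sign, of which only that of Hoxa10 passed the test. The probe listed as Hoxa9 matched Hoxa7, and the probe listed as Hoxa9l matched Hoxa9.

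Beside Hoxa11, the antisense transcript Hoxa11-as differed by more than any member. It falls outside the name rule and is listed in the file under RGD1564419, Entrez ID 500128. Its probe at chr4:80550018-80550077, on the plus strand, lies between the Hoxa11 and Hoxa13 probes, which are on the minus strand. It read 2065 and 2287 at high density and 613 and 687 at regular density. The groups were far apart, with a rise of 3.11-fold (log2 change 1.64, SE 0.10, adjusted p = 0.000236, limma, 95% interval 1.39 to 1.89), the same within number 1 (1.63) and number 2 (1.65). In mouse limb and human uterus this RNA is known from the strand opposite Hoxa11. The difference of Hoxa11-as from Hoxa11 in scaled log2 values was 1.92 and 1.80 at high density and 0.23 and -0.11 at regular density. These are values of 2 probes, whose levels cannot be set against each other, so only the change is read. That change, 1.80, had an exact two-sided permutation p of 0.333, the smallest that 2 against 2 arrays allow.

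The other measurable HoxA genes did not pass the test. Hoxa9, a regulator of blood progenitors, read 91.7 and 85.1 at high density and 51.4 and 57.4 at regular density. Both high density arrays were higher, by 1.51-fold, but the gene missed the threshold (log2 change 0.60, SE 0.21, adjusted p = 0.0793, 95% interval 0.08 to 1.11). Hoxa9 was called in a limma fit blocked by replicate number (adjusted p = 0.0201), but the labels do not tie these numbers to a shared experiment. It was called without HD2 (log2 change 0.78, adjusted p = 0.041). Hoxa5, which acts in lung development, read 227 and 242 against 187 and 257, and its groups overlapped (log2 change -0.01, adjusted p = 0.955). Hoxa7, a trunk gene, read 99.99 and 106 against 83.9 and 159, also with overlap (log2 change -0.27, adjusted p = 0.402). The signs of both turned when RD2 was left out, to 0.07 and 0.04, and that of Hoxa5 also without HD2, to 0.07. Hoxa13 read 22.9 and 46.1 against 27.4 and 34.0, near background. Hoxa2 and Hoxa6 lay under background.

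Probes of other HoxA genes that carry no Hox symbol were also dim. Hoxa3 (listed as RGD1561431) and a probe described under an older name of Hoxa4 lay under background on all 4 arrays.

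HoxB had 1 probe above background on all 4 arrays and 3 above it on at least 1 array. Hoxb7, a trunk gene also active in blood and connective tissue cells, read 69.7 and 65.2 at high density and 31.2 and 51.3 at regular density. The groups did not overlap, but the regular density arrays were far from each other, and the test was not passed (log2 change 0.65, SE 0.27, adjusted p = 0.114, 95% interval 0.00 to 1.29). The change was 1.04 within replicate number 1 and 0.26 within number 2. Hoxb6 read 29.9 and 34.0 against 11.2 and 19.7, with only HD2 above background. Hoxb4 read 19.0 and 39.9 against 25.7 and 78.7, and its groups overlapped. Hoxb8, which holds back the maturing of myeloid progenitors when overexpressed, read 15.3 and 21.8 against 11.6 and 11.0, all under background. Hoxb3, Hoxb9 and Hoxb13 stood only in the spot table and lay under background, so no difference could be detected for them.

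In HoxC, Hoxc9 was lower at high density. Hoxc9, which sets thoracic identity in the spinal cord, read 840 and 956 at high density and 1233 and 1223 at regular density. Both high density arrays were below both regular density arrays. The difference was 1.47-fold (log2 change -0.56, SE 0.13, adjusted p = 0.0195, limma, 95% interval -0.86 to -0.26), with -0.67 within number 1 and -0.45 within number 2. The call ended without scaling (log2 change -0.45, adjusted p = 0.174). Its probe, Entrez ID 368178, lies at chr7:141775172-141775231 on the plus strand in the authors' table. That is between the probes listed as Hoxc6 (chr7:141773304-141773363) and Hoxc5 (chr7:141777424-141777483), whereas RefSeq orders Hoxc9 between Hoxc10 and Hoxc8. Which transcript this probe reads was not tested, and the value is given under the file's name.

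The other HoxC genes gave no call in the main fit. Hoxc13, known for hair and nail growth, read 143 and 173 at high density and 111 and 119 at regular density. Both high density arrays were higher (log2 change 0.34, SE 0.14, adjusted p = 0.111, 95% interval 0.00 to 0.68). Hoxc13 was called in the limma fit blocked by replicate number (adjusted p = 0.0371), with the limit given for Hoxa9. Hoxc5 read 76.4 and 64.5 against 52.7 and 63.8 (log2 change 0.17, adjusted p = 0.620), and its second probe, found in the spot table only, lay under background on every array. After scaling the Hoxc5 groups overlapped, and its sign changed without HD1 (-0.08). Hoxc4, Hoxc6, Hoxc11 and Hoxc12 lay under background on all arrays.

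In HoxD, Hoxd9 had the largest difference of any Hox gene tested. Hoxd9, which helps pattern the forelimb and the lower spine, read 94.8 and 150 at high density and 211 and 342 at regular density. Each high density array was below each regular density array, and in both groups the array numbered 2 read higher than that numbered 1. The gene was 2.42-fold lower (log2 change -1.28, SE 0.20, adjusted p = 0.00582, limma, 95% interval -1.75 to -0.80). The change was -1.27 within replicate number 1 and -1.28 within number 2. From the authors' normalized values it was -1.33. The probe, Entrez ID 688999, lies at chr3:57314446-57314505 on the plus strand in the authors' table.

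The neighbours of Hoxd9 moved less or could not be measured. A probe without a symbol that the file describes as homeobox D8 read 317 and 384 at high density and 342 and 360 at regular density, with overlap (log2 change -0.11, adjusted p = 0.486). Hoxd10, which acts in lumbar motor neurons, read 13.3 and 41.7 against 26.7 and 58.6, above background on 1 array of each group. Hoxd4, which acts in the hindbrain and neck, read 113 and 87.4 against 72.1 and 66.6. After scaling, HD2 lay below RD1, so its groups overlapped (log2 change 0.41, adjusted p = 0.275). It was called without HD2 (log2 change 0.73, adjusted p = 0.0443). Hoxd1, Hoxd12 and Hoxd13 lay under background. Of the other probes of genes numbered 9, that listed as Hoxc9 was also lower (-0.56), though which transcript it reads was not tested. The probe matched to Hoxa9 changed by 0.60 and missed the threshold, and that of Hoxb9 lay under background.

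The TALE partners of Hox proteins gave no call. Of 8 on the array, 6 were tested (Pbx2, Pbx3, Meis1, Meis2 and Meis3 among them), and none passed, with a median log2 change of -0.01. Meis1 read 917 and 1086 at high density and 1073 and 1175 at regular density. Changes ranged from -0.28 for Meis1 (adjusted p = 0.0843) to 0.18 for Pbx3. Pbx4 lay under background and Pknox1 was above it on 1 array.

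Among regulators of Hox chromatin, 4 of 16 tested Polycomb genes were higher and none lower, beside 13.0% and 17.9% of all tested features. The median log2 change of the 16 was 0.07. Under median scaling 1 was higher and 1 lower, and without scaling 1 was higher. Cbx8, a subunit of Polycomb repressive complex 1 that binds methylated histone H3, read 640 and 767 at high density and 253 and 304 at regular density. The groups were well apart, at 2.35-fold (log2 change 1.23, adjusted p = 0.000427, limma). Phf19, an accessory subunit of complex 2, changed by 0.48 (adjusted p = 0.0389). The histone-binding subunits Rbbp4 and Rbbp7, which other chromatin complexes share, changed by 0.44 (adjusted p = 0.0167) and 0.35 (adjusted p = 0.0459). The call of Cbx8 held whichever array was left out. That of Phf19 ended without any 1 of the 4 (adjusted p = 0.0858 to 0.160). That of Rbbp7 ended without HD1, HD2 or RD1 (0.111 to 0.213), and that of Rbbp4 without HD1 (0.128) or HD2 (0.0597). Of 7 tested Trithorax genes, 2 were lower: the menin gene Men1 by -0.41 (adjusted p = 0.0298) and Wdr5, a core subunit of histone H3 methyltransferase complexes, by -0.35 (adjusted p = 0.0314). Neither was called once any 1 array was left out (adjusted p = 0.0510 to 0.213 for Men1 and 0.0539 to 0.187 for Wdr5).

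In retinoic acid signalling, 2 of 7 tested genes were lower and none higher, with a median log2 change of -0.20. With no filter on dim probes, 1 gene of this list was higher and 3 were lower. Crabp1 was too dim to test, but it read 37.3 and 62.5 at high density, above background on both arrays. At regular density Crabp1 lay under background on both arrays, so the size of its change was not measured. Crabp2, which carries retinoic acid to its nuclear receptors, read 1806 and 1902 at high density and 5085 and 4943 at regular density. It was 2.91-fold lower (log2 change -1.54, adjusted p = 0.000813, limma). Dhrs3, which turns retinal back to retinol, was also lower (-0.66, adjusted p = 0.00929), a call lost without scaling (-0.55, adjusted p = 0.106). The receptors Rara, Rarg and Rxrb were not called, and the enzymes that make and break down retinoic acid in the list, Aldh1a1, Aldh1a2, Aldh1a3, Cyp26a1, Cyp26b1 and Cyp26c1, lay under background.

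Genes around the clusters and inducers of Hox genes gave 2 higher of 12 tested, with a median of 0.19. The count was 4 with quantile scaling and from the authors' values, and 1 under median scaling or without scaling. When every probe of these genes was tested, not only the brightest of each gene, 3 probes were higher and 1 lower. Cdx1, a homeobox factor that switches on Hox genes along the embryonic trunk and is best known in adult gut epithelium, read 3008 and 3237 at high density and 678 and 967 at regular density. It was 3.58-fold higher (log2 change 1.84, adjusted p = 0.000252, limma), while Cdx2 and Cdx4 lay under background on all arrays. Hnrnpa1, an RNA-binding protein gene beside HoxC, changed by 0.49 (adjusted p = 0.0322), a call lost without HD1, HD2 or RD1 (adjusted p = 0.0531 to 0.0665). Evx1 lay under background on all arrays and Evx2 rose above it on HD2 only.

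Other limb and positional factors gave 4 higher and 2 lower of 12 tested, with a median of 0.31. Dlx5, which drives bone formation, read 630 and 719 at high density and 183 and 251 at regular density, 2.92-fold higher (adjusted p = 0.000311). Pitx1, which marks the hindlimb, read 956 and 912 against 388 and 378, 2.27-fold higher (adjusted p = 0.00381). Msx1, which acts in limb buds and craniofacial bone, read 710 and 843 against 327 and 368, 2.08-fold higher (adjusted p = 0.000960). In each of these the groups did not overlap. Tbx18, known from vessel wall progenitors, was higher (log2 change 0.60, adjusted p = 0.00863). Emx2 and Tbx15, which both act in the shoulder girdle, were lower (-0.58, adjusted p = 0.0125, and -0.64, adjusted p = 0.0232). The call of Emx2 ended without HD1 (adjusted p = 0.0836), and that of Tbx15 without HD1, RD1 or RD2 (0.0620 to 0.119). Without scaling neither was called (adjusted p = 0.203 for Emx2 and 0.237 for Tbx15). These counts stand beside smooth muscle markers that were higher at high density, as given above.

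Of genes reported elsewhere as Hox targets, 2 of 6 tested were higher and none lower, with a median of 0.16. The number higher was 4 with quantile scaling and from the authors' values, and 1 under median scaling or without scaling. With every probe of these genes tested, not only the brightest of each gene, 3 probes were higher and 1 lower. Plau, the urokinase protease, read 2887 and 3048 at high density and 1668 and 1876 at regular density. It was 1.56-fold higher (log2 change 0.64, adjusted p = 0.00813, limma). Its receptor Plaur changed by 0.42 (adjusted p = 0.0358), a call lost without HD1, HD2 or RD2 (adjusted p = 0.100 to 0.193). It was also lost with quantile (0.0560), median (0.155) and no scaling (0.152) and from the authors' values (0.0558). Itga5, Mmp14 and Thbs2 were not called, and Nos3, Bmp2 and Bmp7 lay under background. All list counts can be read beside the 13.0% of all features called higher, the 17.9% called lower and the 30.9% called in either direction.

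**Figure D3:**
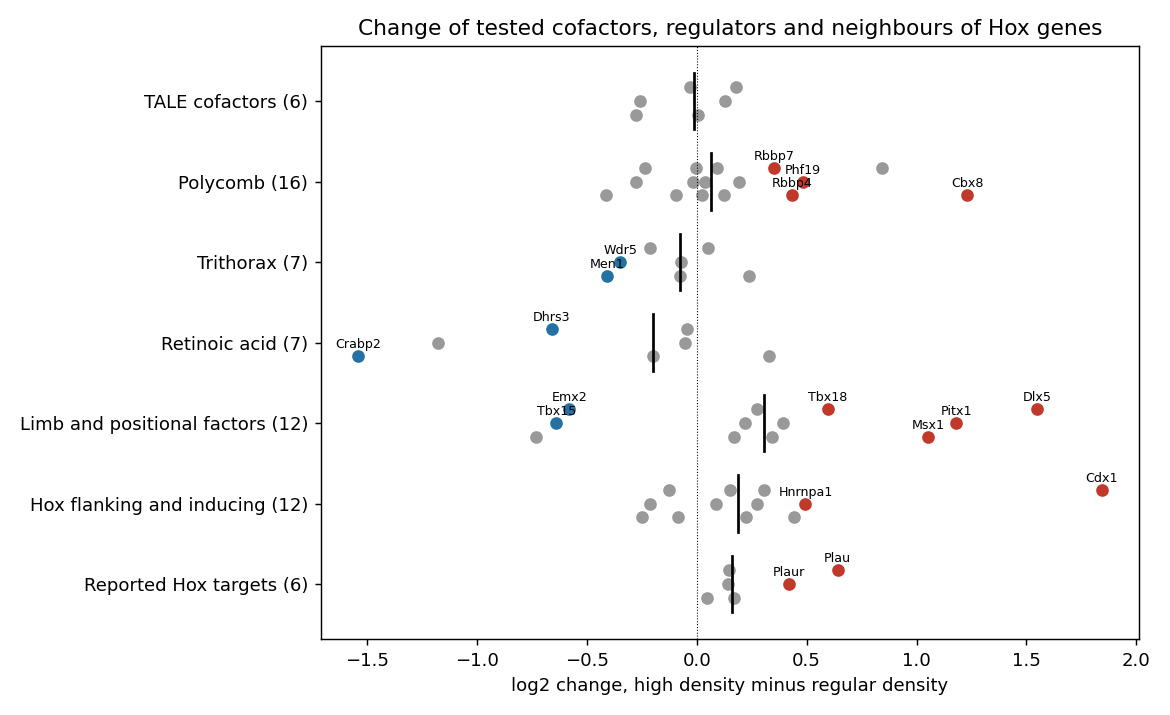
Log2 change (high minus regular density) of each tested gene in the lists of Hox partners, regulators, neighbours and reported targets, n = 2 arrays per group, with genes called by limma in red (higher) or blue (lower) and a bar at the median of each list. The largest changes are Cdx1 (1.84), Dlx5 (1.55) and Cbx8 (1.23) above 0 and Crabp2 (-1.54) below it.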

How the data were processed

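Total RNA of 4 cultures was labelled with Cy3 and hybridised to 1 array each. The deposited spot table holds linear intensity, per the file headers the processed signal, from Agilent Feature Extraction 11.0.1.1 per the submitters' processing notes. The authors also deposited normalized log2 values for 21473 probes. No source used here gives their normalization method, or why 8894 probes are absent from that table. Changes from those values were nearly those under quantile scaling: 0.47 under both for Hoxa10, -0.53 for Hoxc9 and -1.33 for Hoxd9. These alternatives are therefore not separate checks.

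After control spots were dropped, log2 intensities of repeated spots were averaged, and each array was scaled to its 75th percentile. Probes with a mean above 5.62 were tested, the brightest probe per gene, with limma 3.58.1 (R 4.3.3; two-sided, variance trend, Benjamini-Hochberg, threshold 0.05; 2 residual and 4.43 prior degrees of freedom). The method was tested on simulated data, in which noise was independent between arrays. That simulation does not cover the correlation of 0.37 between the deviations of same-numbered arrays. Names came through RefSeq (GRCr8) by Entrez ID or accession. All Hox probes were reported, with 4 values where bright enough, and up to 4 genes of each other list by smallest p. Markers and some dim list genes were named beyond that after their values were seen. A few genes that enter the counts are not reported here by name. Members and lists were chosen with earlier results of these data known. Python 3.11.15 and pandas 2.3.3 were used. Alternatives were other scalings, the authors' values, filters, variance models, a fit blocked by replicate number, and each array removed in turn. The number of arrays limits the precision.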

Additional observations from a re-analysis of the deposited data

How the results depend on the processing

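Over all features, 1779 were higher and 2452 lower. The stricter brightness filter (mean above 8.66) gave 933 higher, no scaling gave 578 lower, and the replicate block gave 2882 higher and 4137 lower. Leaving out 1 array gave 1178 to 1895 higher and 1262 to 2233 lower. Of Hox genes, 0 were higher under median scaling and 0 without scaling, 2 without the variance trend, 3 with the replicate block and 0 to 2 with 1 array left out. One fewer was lower without scaling (1) and under the stricter filter (1), for which Hoxd9 is too dim. The median change of tested Hox genes, 0.26, became 0.15 with quantile scaling, 0.13 with median scaling, 0.36 without scaling, 0.15 from the authors' values, 0.051 with no filter, -0.16 under the stricter filter, 0.17 as the mean over a gene's probes and 0.0084 to 0.36 with 1 array left out. Above the highest negative control lay 6 Hox probes on both high density arrays and 5 on both regular density arrays, against 16 and 15 for the 95th percentile. Hoxa5 (-0.01) turned to 0.094 without scaling. With 1 array left out, Hoxa5 ranged from -0.094 to 0.072, Hoxa7 from -0.59 to 0.041 and Hoxc5 from -0.083 to 0.42. The median of all features moved from -0.08 to -0.20 under median scaling and 0.03 without scaling. With the replicate block Hoxa9 (adjusted p = 0.0201) and Hoxc13 (0.0371) were also called, and without the variance trend Hoxa9 (0.0468). Arrays of the same number deviated from their group means with a correlation of 0.37 across features, but the labels do not tie the numbers to a shared experiment. The cause of these changes was not tested. Over all alternatives the counts called ranged from 0 to 1 for TALE partners, 1 to 6 for Polycomb, 0 to 2 for Trithorax, 1 to 4 for retinoic acid, 3 to 9 for limb factors, 1 to 7 for flanking and inducing genes and 1 to 4 for reported targets, the highest for flanking genes under the replicate block. Hoxd9 and Hoxa11-as were called under every alternative that tested them. Intensities under background have no order.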

Other observations

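Some unnamed probes between the Hox genes also gave signal, and which transcripts they read was not tested. Of 9 probes without a gene symbol whose positions fall inside the spans of the Hox probes, 6 lay above background on all 4 arrays and 5 were tested. A_64_P100539, on chromosome 7 between the probes listed as Hoxc11 and Hoxc6, read 421 and 574 at high density and 557 and 873 at regular density. It was lower at high density (log2 change -0.61, SE 0.15, adjusted p = 0.0233, limma). The other 4 tested probes were not called, with changes of -0.33 to 0.28.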
